A study of Mus musculus with 43 samples.

Results

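The 4 H3K4me3 peak lists of WT testes were compared between postnatal day 7 (P7, 2 lists) and postnatal day 14 (P14, 2 lists), out of 43 samples of the series. Each list was made by CUT&Tag, in which an antibody guides a transposase to a chromatin mark and the cut DNA is sequenced, on single-cell suspensions from testes of C57BL/6J mice. No genetic change or drug treatment is stated for these WT CUT&Tag samples. The P7 labels give spermatogonia as the cell type, whereas the P14 labels give spermatogonia in the title and spermatocytes in the cell type field. The methods describe enzymatic dissociation with removal of interstitial cells and straining to remove Sertoli cells, but no sorting of the germ cells used for CUT&Tag. No label says whether replicates came from separate animals, so the tests measure only the spread between these libraries. Of the peaks on the reference chromosomes, those with a summit at most 3000 bp from an annotated transcription start site were counted as promoter peaks.

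H3K4me3, the trimethylation of lysine at position 4 of histone H3, marks the start sites of active and poised genes and is strongest over CpG-rich promoters. It is written by the SET1 and MLL complexes and removed by the KDM5 demethylases. In germ cells that enter meiosis, the zinc finger methyltransferase PRDM9 also places H3K4me3 away from promoters, at the sites where recombination begins. The first wave of spermatogenesis passes from spermatogonia at P7 to a testis that holds spermatocytes in meiotic prophase at P14.

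H3K4me3 peaks were more numerous at P14 than at P7, and most of the added peaks lay away from promoters. The P7 lists held 19063 and 18364 peaks and the P14 lists 25523 and 26534 peaks, which is 18714 ± 494 against 26029 ± 715 (SD, n = 2). Promoter peaks numbered 16447 and 16087 at P7 and 17728 and 18238 at P14, a ratio of 1.11. Non-promoter peaks numbered 2616 and 2277 at P7 and 7795 and 8296 at P14, a ratio of 3.29. For both classes of peak the ages did not overlap. The promoter share of peaks was 86.3% and 87.6% at P7 and 69.5% and 68.7% at P14. In exact two-sided permutation tests of 4 list measures, peak number and promoter share each gave p = 0.33, the smallest that 2 against 2 lists allow, and an adjusted p of 0.444. When every list was shortened to its 18364 best peaks, the promoter share at P14 was 79.3% against 87.5% at P7. For comparison, the promoter share of the H3K27ac lists, a mark of active promoters and enhancers, was 49.8% and 50.9% at P7 and 48.6% and 44.6% at P14.

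**Figure D1:**
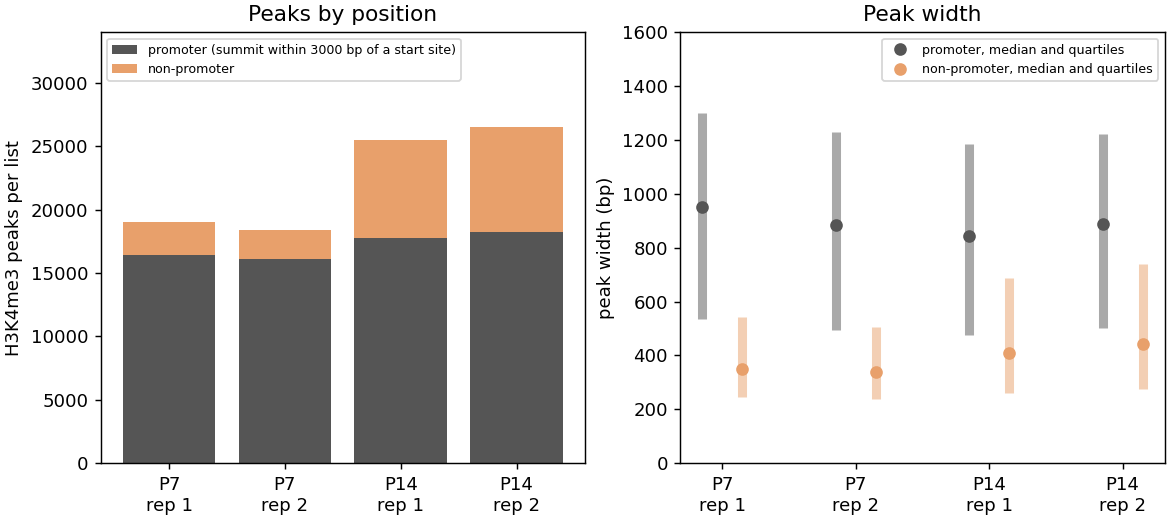
Number of H3K4me3 peaks per list (left, bars from 0, split by position) and width of peaks in bp (right, dots for medians and thick lines from the lower to the upper quartile) in the 2 P7 and 2 P14 lists. The non-promoter part was 2616 and 2277 peaks at P7 and 7795 and 8296 at P14, while the medians of promoter peak width overlapped between ages.

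The width of promoter peaks differed little between ages. Their median was 951 and 883 bp at P7 and 842 and 887 bp at P14, so that the second P14 list lay between the P7 lists (exact p = 0.667, adjusted p = 0.667). With equal list length or with 16087 promoter peaks per list the sign of this difference turned. Promoter peaks of at least 2000 bp numbered 418 and 269 at P7 and 197 and 255 at P14. Non-promoter peaks were narrower than promoter peaks in each list, with medians of 351 and 338 bp at P7 and 408 and 441 bp at P14. This difference of 80 bp had an exact p of 0.33 and an adjusted p of 0.444. Non-promoter peaks of 600 bp or more numbered 555 and 397 at P7 and 2419 and 2888 at P14. All non-promoter peaks together covered 1.17 and 0.961 Mb at P7 and 4.03 and 4.55 Mb at P14.

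Replicate lists shared most promoters but fewer of the other regions. Among the protein-coding genes marked at their promoter in at least 1 list of an age, 95% were in both P7 lists and 94.2% in both P14 lists. Of non-promoter regions, 39% were in both P7 lists and 49.5% in both P14 lists. For this reason a gene or region was taken as present at an age only when both lists held it, and as absent only when neither did.

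The cell types expected in a testis suspension were checked by their markers. Of 7 spermatocyte markers (Sycp1, Sycp3, Dmc1, Spo11, Meiob, Tex101 and Hormad1), 5 and 6 had a promoter peak at P7 and 7 and 7 at P14, and their summed width was 3650 and 3493 bp against 7045 and 7460 bp. Of 8 Sertoli markers, 7 and 7 were marked at P7 and 6 and 7 at P14, with summed widths of 13452 and 13076 bp against 7264 and 8037 bp, and Rhox5 had no peak in any list. Of 7 markers of spermatogonia and germ cells, 5 and 5 were marked at P7 and 6 and 6 at P14 (5243 and 4549 bp against 7419 and 7794 bp), and Sohlh1 had no peak in any list. Peaks at Sertoli genes were thus present in suspensions labelled as germ cells, which the study describes at P7 as almost entirely germ cells after straining. The 6 defining Leydig markers had no peak except 1 of 235 bp at Lhcgr in the second P14 list. Over the longer Leydig list of 10 genes, 3 and 3 were marked at P7 and 2 and 4 at P14, with 4762 and 4524 bp against 2116 and 2936 bp, which came mostly from Nr5a1, Fdx1 and Hsd17b3. Of 4 peritubular markers 3 and 1 were marked at P7 and 3 and 3 at P14 (1813 and 681 bp against 1032 and 1236 bp). Over all 8 peritubular genes 6 and 3 were marked at P7 and 5 and 5 at P14, and the summed widths of 5186 and 3219 bp at P7 both exceeded those of 3139 and 2893 bp at P14. Of 4 endothelial markers 2 and 2 were marked at P7 and 1 and 3 at P14 (1695 and 1985 bp against 1104 and 2273 bp), and Tek had no peak in any list. Over all 8 endothelial genes the summed widths were 3742 and 3278 bp against 3344 and 4232 bp. Of the 10 macrophage genes, which include 5 defining markers, Cd14 alone was marked, in all 4 lists. Fewer cells of a type and less of the mark per cell cannot be told apart in such lists, and the part of cell composition in the results was not tested.

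By P14, 443 protein-coding genes had gained a promoter peak and 101 had lost one, out of 21938. The background rates were 2.02% for a gain and 0.46% for a loss, while 13015 genes (59.3%) had a peak in all 4 lists and 6997 (31.9%) in none. Which of the 2 counts was higher depended on how the lists were made equal. With lists of equal length 152 genes gained and 416 lost a peak, and with equal numbers of promoter and of non-promoter peaks 249 gained and 208 lost one. Of the 443 genes, 141 remained gained at equal length and 235 at equal numbers, and of the 101 lost genes 100 remained in each. Leaving out 1 library raised the gains to 702 (without P7 replicate 1) and 760 (without P14 replicate 1). The losses were 157 and 194 without P7 replicates 1 and 2, and 163 and 234 without P14 replicates 1 and 2. Presence or absence at that age then rests on 1 list. No test across replicates applies to a presence call.

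The position of the peaks was checked for each changed gene. The strongest peak was overlapped by a peak of the other age at 4 of the 443 gained and 2 of the 101 lost genes, where a summit or a second peak decided the call. Its summit lay more than 3000 bp from the 5′ end of the gene, at an internal annotated start only, for 89 gained (20.1%) and 9 lost genes (8.91%). Among these were Myt1, Ecm1 and Cntn2, with summits 48714, 4094 and 19407 bp from the 5′ end and 849, 457 and 456 bp from the nearest annotated start of the gene.

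Sequence around the summit is given for 3 of the strongest gained and 3 of the strongest lost peaks, to show the bases under a peak present at 1 age. Windows with more than 30 bases of an annotated UTR or a peak of the other age were passed over, and Msh4 was added after its values were seen. Each is 300 bases of GRCm38 (mm10), plus strand, 5′ to 3′, with each CpG in capitals. Gained were Myt1 (chr2:181811897-181812196), Ecm1 (chr3:95735326-95735625), Cntn2 (chr1:132523700-132523999) and Msh4 (chr3:153905673-153905972).
Myt1: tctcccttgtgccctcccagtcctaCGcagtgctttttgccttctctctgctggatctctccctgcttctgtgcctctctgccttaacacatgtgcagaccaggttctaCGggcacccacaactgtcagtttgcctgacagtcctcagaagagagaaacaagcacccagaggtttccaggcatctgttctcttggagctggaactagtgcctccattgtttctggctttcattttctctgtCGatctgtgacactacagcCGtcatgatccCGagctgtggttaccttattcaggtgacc
Ecm1: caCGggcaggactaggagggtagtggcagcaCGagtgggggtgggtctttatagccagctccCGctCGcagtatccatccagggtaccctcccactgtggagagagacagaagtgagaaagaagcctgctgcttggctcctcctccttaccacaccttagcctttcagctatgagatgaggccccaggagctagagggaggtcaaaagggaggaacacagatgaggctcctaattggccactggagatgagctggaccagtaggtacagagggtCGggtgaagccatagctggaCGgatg
Cntn2: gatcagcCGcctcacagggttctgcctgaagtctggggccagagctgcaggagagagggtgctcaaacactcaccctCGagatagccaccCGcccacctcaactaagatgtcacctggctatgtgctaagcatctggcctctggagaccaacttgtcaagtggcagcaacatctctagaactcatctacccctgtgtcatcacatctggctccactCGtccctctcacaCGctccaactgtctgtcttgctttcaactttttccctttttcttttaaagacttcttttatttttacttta
Msh4: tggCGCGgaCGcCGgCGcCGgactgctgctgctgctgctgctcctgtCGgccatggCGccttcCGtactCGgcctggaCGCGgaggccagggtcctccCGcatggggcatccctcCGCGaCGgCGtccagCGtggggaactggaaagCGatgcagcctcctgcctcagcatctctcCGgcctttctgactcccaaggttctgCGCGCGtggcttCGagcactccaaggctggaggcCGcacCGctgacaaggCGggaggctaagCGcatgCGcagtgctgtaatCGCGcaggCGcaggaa
Lost were Slc38a5 (chrX:8271869-8272168), Kctd12b (chrX:153695249-153695548) and Fancb (chrX:164979748-164980047).
Slc38a5: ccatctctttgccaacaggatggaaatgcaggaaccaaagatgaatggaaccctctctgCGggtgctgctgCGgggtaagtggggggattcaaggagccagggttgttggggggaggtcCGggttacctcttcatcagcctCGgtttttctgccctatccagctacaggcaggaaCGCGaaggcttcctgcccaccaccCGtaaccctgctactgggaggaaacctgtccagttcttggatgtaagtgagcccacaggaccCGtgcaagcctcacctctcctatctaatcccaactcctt
Kctd12b: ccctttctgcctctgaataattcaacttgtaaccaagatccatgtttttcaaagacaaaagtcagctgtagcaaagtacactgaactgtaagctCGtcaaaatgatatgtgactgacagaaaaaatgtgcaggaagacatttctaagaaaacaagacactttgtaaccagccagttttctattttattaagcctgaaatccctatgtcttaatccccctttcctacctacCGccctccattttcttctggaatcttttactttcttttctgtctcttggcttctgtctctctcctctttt
Fancb: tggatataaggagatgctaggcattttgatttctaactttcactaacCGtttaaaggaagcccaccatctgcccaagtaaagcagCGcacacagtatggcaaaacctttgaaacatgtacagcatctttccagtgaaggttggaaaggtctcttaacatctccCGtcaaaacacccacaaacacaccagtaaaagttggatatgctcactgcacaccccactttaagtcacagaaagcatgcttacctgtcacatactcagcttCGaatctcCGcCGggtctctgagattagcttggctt

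Each gained window overlapped a peak in both P14 lists and in no P7 list, and each lost window the reverse. They held 5 CpG in Myt1, 6 in Ecm1, 5 in Cntn2 and 32 in Msh4, and 8 in Slc38a5, 2 in Kctd12b and 6 in Fancb. Msh4, whose summit was 316 bp from its start, stood above the other 6.

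The strongest gained peaks fell on genes of varied function. Myt1, a zinc finger transcription factor of neural cells, had peaks of 1840 and 1722 bp at P14, and Ecm1, an extracellular matrix protein, of 1081 and 1422 bp. Dusp26, a protein phosphatase, had 1434 and 1733 bp, and Cntn2, an axonal adhesion protein, 827 and 867 bp. Tmprss12, a serine protease, had 662 and 763 bp, and Tm4sf19, a tetraspan membrane protein, 897 and 1018 bp. Mdc1, which binds phosphorylated H2AX at DNA breaks, had 799 and 762 bp. Spo11 and Msh4, of meiotic recombination, were also among the 9 strongest and are described below. The tenth place was shared by Aspa, Gm49340 and Spata22, whose start sites lie under 1 peak of 633 and 833 bp. None of these genes had a peak in either P7 list.

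Genes of meiotic recombination were among the gained promoters. Of 25 listed genes for double-strand breaks and strand exchange, 6 gained a promoter peak (24%, beside 2.02% of all genes). Another 15 had one at both ages (beside 59.3% of all genes), and none lost it (beside 0.46%). Spo11, which cuts the DNA to start recombination, had no peak at P7 and peaks of 679 and 728 bp at P14. Mei1, needed for break formation, had peaks of 497 and 413 bp at P14. Spata22, a partner of MEIOB on single-stranded DNA, had 633 and 833 bp at P14 in a peak shared with the start sites of Aspa and Gm49340. Msh4 and Msh5, which form the heterodimer that stabilizes crossover intermediates, had 722 and 889 bp and 459 and 593 bp at P14. Tex11, an X-linked crossover factor, had 1027 and 571 bp. All 6 were called gained also at equal list length. Hormad1 and Rnf212, with a peak in both P14 lists and in 1 P7 list, and Rec114, with a peak in 1 P14 list, did not meet the rule, and Ccdc36 had no peak in any list.

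Transcripts of these genes could be read at P7 in other WT samples, the controls of the tamoxifen-induced deletion experiment. They were bulk RNA-seq of testes (3 libraries) and Smart-seq2 of sorted spermatogonia (2 libraries). The labels give both as WT, whereas the sorting methods name control mice heterozygous for the floxed allele (Ddx4-GFP-CreERT2-Prmt1+/lox), with GFP used to sort the cells. Msh5 had 2.44, 4.4 and 7.01 TPM in bulk and 42.8 and 66.7 TPM in spermatogonia. Tex11 had 28.9, 36.8 and 31.2 TPM in bulk and 147 and 70.1 TPM in spermatogonia. Mei1 had 4.69, 6.03 and 5.46 TPM in bulk and 60.2 and 30.4 TPM in spermatogonia. Spo11 had 0.56, 0.31 and 0.9 TPM in bulk and differed between the spermatogonia libraries, at 18.9 and 0.09 TPM. Transcripts of several of these genes were therefore counted at P7, when their promoters had no called peak.

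The next list joined genes of the synaptonemal complex, which holds homologous chromosomes together, meiotic cohesin and chromosome attachment. The genes of the complex itself (Sycp1, Sycp2, Sycp3, Syce1, Syce2 and Syce3) had a peak at both ages, and Tex12 had a mixed pattern. Of the 18 genes, 3 gained a peak (16.7%, beside 2.02% of all genes), 14 had one at both ages (beside 59.3%), and none lost it (beside 0.46%). Rec8, the meiotic kleisin, had 498 and 440 bp at P14. Meikin, which directs the meiotic kinetochore, had 339 and 434 bp. Majin, which tethers telomeres to the nuclear envelope, had 704 and 566 bp. Rec8 was not called gained at equal list length. Of 20 genes of the piRNA pathway, which silences transposons in germ cells, and of its pachytene regulators, 3 gained a peak (15%, beside 2.02% of all genes). Another 14 had one at both ages (beside 59.3%). Piwil1 had 416 and 726 bp, Tdrd9 529 and 606 bp, and Btbd18 721 and 737 bp at P14, and Piwil1 was not called gained at equal list length.

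Lists of earlier and later germ cell genes held 0 or 1 gained gene each, with 2.02% gained over all protein-coding genes. A peak at both ages was present at 59.3% of all protein-coding genes. Of 14 genes of spermatogonial differentiation, Lin28a, an RNA-binding protein, gained a peak (376 and 1087 bp at P14) and 10 had one at both ages. Of 18 genes of stem cell self-renewal, none gained or lost one and 12 had one at both ages. Among these, Id4 had 1512 and 1628 bp at P7 and 1730 and 1780 bp at P14, Etv5 1269 and 1070 bp against 1518 and 1699 bp, and Pou3f1 1595 and 1560 bp against 1884 and 1833 bp. Zbtb16 had 1129 and 1255 bp against 1174 and 1044 bp, Taf4b 1317 and 1123 bp against 1466 and 1448 bp, and Lhx1 577 and 721 bp against 601 and 516 bp. Sohlh2, a regulator of differentiation, had 1117 and 799 bp against 1304 and 1234 bp. Pou5f1 had no peak in any list, and Bcl6b had 1 of 320 bp in the first P14 list alone. Of 30 genes of spermatids and sperm, 17 had no peak in any list (beside 31.9% of all protein-coding genes), among them the protamines Prm1 and Prm2. Peaks at both ages were found at 9 (beside 59.3%), and Tekt4 gained narrow peaks of 200 and 235 bp.

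Outside the germ cell lists, 4 of 20 genes of the HoxA and HoxD clusters gained a peak (20%, beside 2.02% of all genes) and none lost it (beside 0.46%). Hoxd13 had 232 and 632 bp, Hoxa7 380 and 406 bp, Hoxa10 229 and 528 bp and Hoxd11 430 and 294 bp at P14. Of these only Hoxd13 was called gained at equal list length. The list holds no HoxB or HoxC gene. Hoxb1 and Hoxc11, named after their values were seen, also gained a peak, but the other HoxB and HoxC genes were not counted. All 15 housekeeping genes and all 19 H3K4 methyltransferases, demethylases and their partners had a peak in all 4 lists (beside 59.3% of all genes). Prdm9 itself had promoter peaks of 1285 and 1336 bp at P7 and 1246 and 1347 bp at P14.

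**Figure D2:**
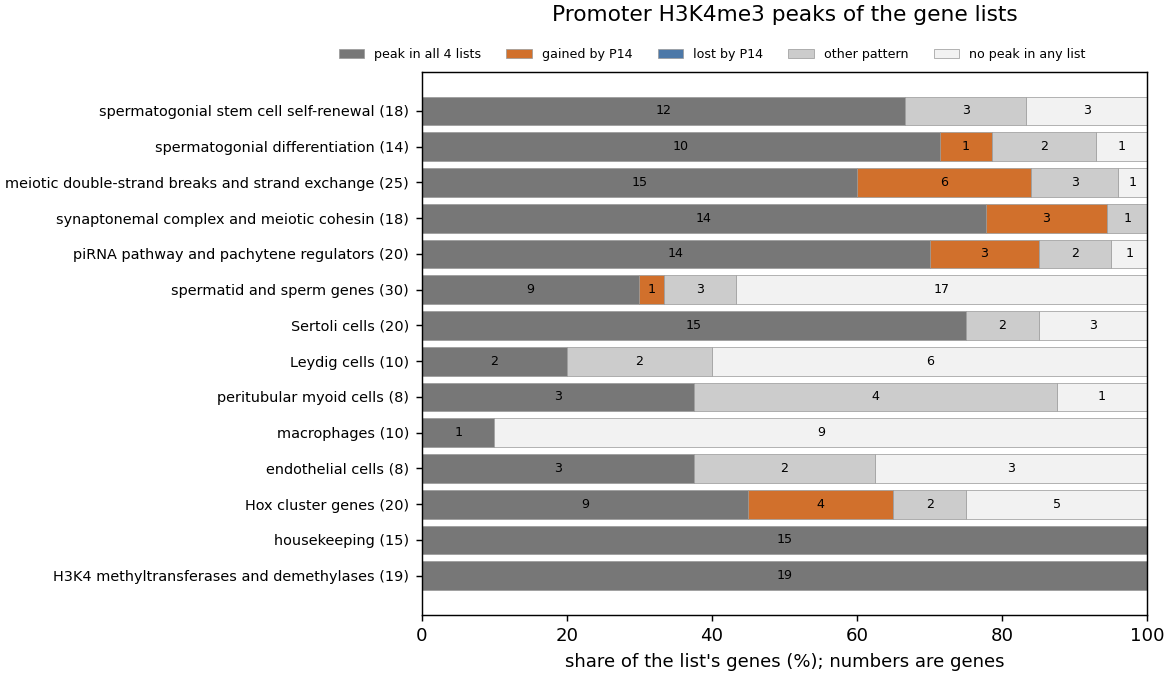
Share of each gene list (horizontal axis, %, with the number of genes written in each bar) whose promoters had an H3K4me3 peak in all 4 lists, gained or lost one by P14, had another pattern or had no peak. The lists of meiotic recombination, synaptonemal complex and cohesin, piRNA and Hox genes held 6, 3, 3 and 4 gained genes, and no listed gene lost its peak.

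The genes that lost a promoter peak were 0.46% of all protein-coding genes, and at that share the absence of listed genes among them is not a result about the lists. Cspg4, the NG2 proteoglycan of pericytes, had 1245 and 1244 bp at P7 in a peak shared with Odf3l1, and Col6a1, a collagen VI chain, 885 and 701 bp. Mmp2, a matrix metalloproteinase, had 461 and 490 bp, and Lpar4, a lysophosphatidic acid receptor, 437 and 679 bp. Slc38a5, a glutamine transporter, had 1096 and 378 bp, Kctd12b 1305 and 1067 bp, and Nme5 411 and 572 bp. Zfp52 had 344 and 1512 bp, but both P14 lists held a peak over its strongest P7 peak, whose summit was 2998 bp from the start in 1 P7 list. Fancb, of the Fanconi anaemia pathway, and Mospd2 shared peaks of 875 and 454 bp between their divergent start sites. Neither P14 list held a promoter peak for any of them. Col3a1 (1176 and 546 bp at P7) and Dcn (862 and 439 bp), for collagen III and decorin, also lost theirs and were named after their values were seen.

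Most lost genes had transcripts in bulk RNA of the P7 testis, and few had them in sorted spermatogonia. Of the 101 lost genes, 75.2%, 76.2% and 76.2% had at least 1 TPM in the bulk libraries and 17.8% and 13.9% in the Smart-seq2 libraries. Over all protein-coding genes these shares were 62.4% to 62.6% in bulk and 51.5% and 48.6% in Smart-seq2. For genes with a peak at both ages they were 91.6% to 91.9% and 75.4% to 79.5%, and for gained genes 41.5% to 42.2% and 28.9% to 32.5%. Col6a1 had 347, 358 and 361 TPM in bulk and was listed at 0 in both Smart-seq2 libraries. Mmp2 had 148, 148 and 145 TPM in bulk and 4.34 and 0 TPM in Smart-seq2. Cspg4 had 17.6, 16.9 and 17.3 TPM in bulk and was listed at 0 in both Smart-seq2 libraries. Values of the other lost genes named above are not given. The 2 assays were scaled separately and came from other mice, so these levels are given side by side with no test between assays, and the part of somatic cells in these losses was not tested. The summed width of the 8 peritubular genes was lower in both P14 lists than in either P7 list (5186 and 3219 bp against 3139 and 2893 bp), while that of their 4 defining markers overlapped between ages.

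H3K27ac, mapped in other libraries of the same ages, was found at few promoters of either group at P7. A promoter H3K27ac peak in both lists was present at 16 of 443 gained genes at P7 (3.61%) and at 119 at P14 (26.9%). Of lost genes 6 of 101 had one at P7 and 6 at P14 (5.94% each). Of genes with H3K4me3 at both ages 51% had one at P7 and 78.3% at P14. Over all protein-coding genes the shares were 31.1% at P7 and 49.3% at P14, and the P14 H3K27ac lists were longer. At Spo11 and Msh4 H3K27ac was present in both lists at both ages, and at Spata22, Msh5 and Tex11 in both P14 lists only. At Mei1 it was present in 2 lists at P7 and 1 at P14. The asymmetric dimethyl mark H3R2me2a had a promoter peak in both P14 lists at 45.4% of gained, 24.8% of lost and 74.9% of constant genes. H4R3me2a had one in all 3 of its P14 lists at 14%, 11.9% and 47%.

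**Figure D3:**
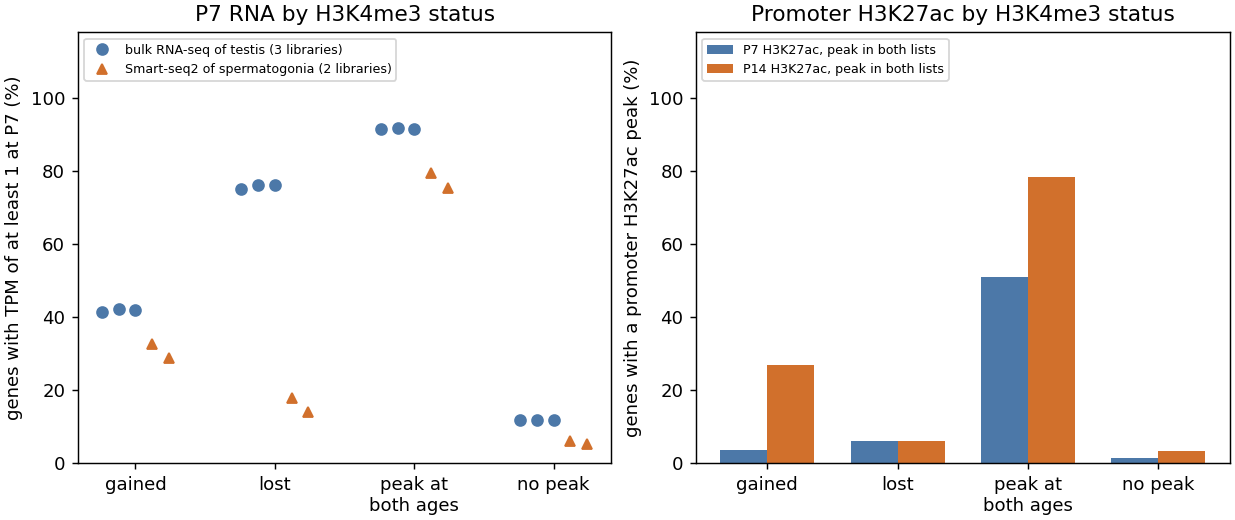
Share of protein-coding genes with at least 1 TPM in each P7 RNA library (left, dots for bulk RNA-seq and triangles for Smart-seq2) and with a promoter H3K27ac peak in both lists of an age (right, bars from 0), by H3K4me3 status. Lost genes stood at 75.2% to 76.2% in bulk and 13.9% to 17.8% in Smart-seq2, and H3K27ac was at 3.61% of gained genes at P7 and 26.9% at P14.

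X-linked genes made up 34 of 443 gained genes (7.67%), 11 of 101 lost genes (10.9%) and 442 of 13015 genes with a peak at both ages (3.4%), beside 948 of 21938 protein-coding genes (4.32%). The summed width of X-linked promoters had a median log2 change of −0.04, against −0.03 over all promoters. When all annotated genes were counted, 1033 gained and 174 lost a promoter peak, and the gained set held 193 processed pseudogenes and 110 lincRNAs. A start site of such a gene can lie inside another transcription unit, so these calls rest on position only.

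Widths of promoters with a peak in all 4 lists were compared with limma on log2 of the summed width within 3000 bp of a gene's start sites. Of 13015 promoters, 85 were wider (0.653%) and 43 narrower (0.33%) at P14, at a Benjamini-Hochberg adjusted p below 0.05 and a 1.5-fold change. These counts were 251 and 122 after centring on each list's median and 34 and 20 with a promoter window of 1000 bp. At 71 of the 85 wider promoters both P14 lists held more separate peaks than either P7 list, so that most of these calls record an added peak near the start site. The same was the case for 4 of the 43 narrower promoters, and 10 of those held fewer peaks at P14. Leaving out any of the 4 libraries left 0 calls in limma, with 614 to 1542 promoters wider and 632 to 1195 narrower at an unadjusted p below 0.05, and 1171 and 1172 with all libraries.

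Among the 85 promoters called wider, the largest increases were at Col9a2, a collagen IX chain, with 227 and 265 bp at P7 and 2388 and 2102 bp at P14 (log2 change 3.19 ± 0.21 SE, adjusted p = 0.0306). Neb, the giant muscle protein nebulin, had 362 and 213 bp against 1777 and 1625 bp (2.61 ± 0.32, adjusted p = 0.0446). Smpd3, a sphingomyelinase, Phox2a, a homeodomain factor, 4833427G06Rik, Cul9, a cullin, Htr1d, a serotonin receptor, and Rtkn2 completed the first 8, with log2 changes of 1.67 to 2.37. For each of the 8 the lowest P14 value exceeded the highest P7 value. Their selection as the largest called increases favours such a separation, so it adds no support.

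Among the 43 called narrower, the largest decreases were at Foxs1, a forkhead factor, with 2065 and 2132 bp at P7 and 288 and 483 bp at P14 (−2.49 ± 0.28, adjusted p = 0.0421), and at Acvrl1, the endothelial TGF-beta receptor ALK1, with 1403 and 1249 bp against 325 and 227 bp (−2.29 ± 0.29, adjusted p = 0.0481). Adgrg1, an adhesion receptor, had 2524 and 2388 bp against 577 and 466 bp (−2.24 ± 0.15, adjusted p = 0.0306). Akr1cl, Nav1, Thoc6, Sema6a and Gstm2, the last a glutathione transferase, completed the first 8, with log2 changes of −2.24 to −1.71. Except at Acvrl1 and Gstm2, with 1 peak in each list, the first 8 held 2 to 4 separate peaks at P7 and 1 at P14. These calls thus include a change in the number of peaks. The peaks of Thoc6 were shared with Cldn6, Hcfc1r1 and Tnfrsf12a. Transcripts of the narrower promoters had a median of 89.4 TPM in bulk and 6.49 TPM in Smart-seq2. Those of the wider promoters had 26.3 and 30.8 TPM, beside 24.1 and 16 TPM for all genes with a peak at both ages.

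Among the gene lists, promoters of Sertoli genes were narrower at P14. Of 15 tested, 4 passed the test in that direction (beside 0.33% of all promoters tested) and none in the other, and the list's median log2 change was −0.71 beside −0.03 over all promoters. Sox9, the factor that specifies Sertoli cells, had 2119 and 2033 bp at P7 and 1097 and 1044 bp at P14 (−0.96 ± 0.09, adjusted p = 0.0306). Gata4 had 3778 and 3576 bp against 1997 and 1904 bp (−0.92 ± 0.08, adjusted p = 0.0306). Cst12, a cystatin, had 2287 and 2071 bp against 933 and 748 bp, and Kitl, the ligand of KIT, 2087 and 2058 bp against 1059 and 1241 bp. Of the Leydig list, Nr5a1, which encodes SF1 and is used by Sertoli cells as well, had 2580 and 2570 bp against 1130 and 1345 bp (−1.06 ± 0.11, adjusted p = 0.0328). The summed width of the 8 Sertoli markers was 13452 and 13076 bp at P7 and 7264 and 8037 bp at P14, and the part of Sertoli cell number was not tested. The width of Amh was the exception in direction, with 640 and 200 bp against 865 and 950 bp (adjusted p = 0.316).

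Each of the 6 germ cell lists had a median width change above that of all promoters, but none of their genes was called wider. The median log2 change was 0.73 over 14 synaptonemal complex and cohesin genes, 0.51 over 14 piRNA genes and 0.31 over 15 recombination genes. It was 0.44 over 9 spermatid and sperm genes, 0.36 over 10 differentiation genes and 0.12 over 12 self-renewal genes. Medians above that of all promoters were not limited to germ cell lists. The Hox list had 0.26 over 9 genes, the endothelial list 0.05 over 3 and the macrophage list 0.64 in 1 gene. Rad21l, a meiotic cohesin, had 414 and 346 bp against 1099 and 1260 bp (1.64 ± 0.24, adjusted p = 0.0539), and Terb2, of the telomere complex, 200 and 200 bp against 967 and 1038 bp (2.33 ± 0.31, adjusted p = 0.0534). Sycp1 had 594 and 707 bp against 1159 and 1114 bp, and Ddx4, the germ cell helicase, 510 and 403 bp against 1135 and 1083 bp, with adjusted p-values of 0.113 and 0.075. Of the differentiation list, Nanos3 was narrower at P14, with 1629 and 1613 bp against 939 and 865 bp (−0.85 ± 0.11, adjusted p = 0.0492), while Kit had 1337 and 1288 bp against 2012 and 2495 bp (adjusted p = 0.0619). The 15 housekeeping promoters had a median log2 change of −0.04 and no call.

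**Figure D4:**
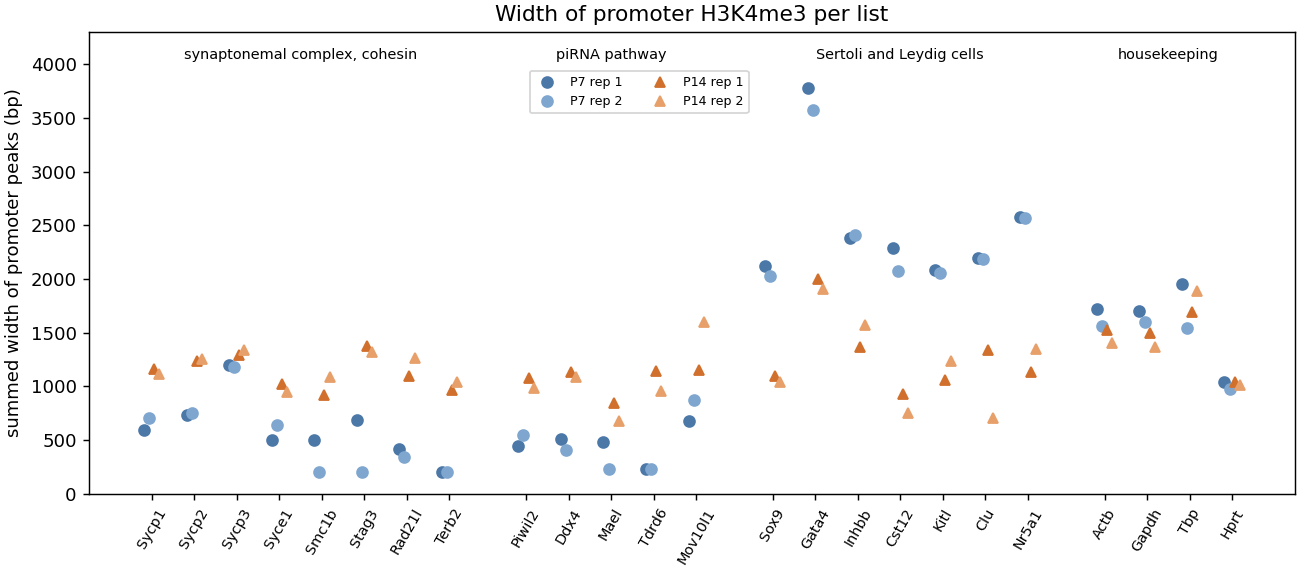
Summed width in bp of promoter H3K4me3 peaks of chosen list members in each list (circles for P7, triangles for P14). Rad21l and Terb2 lay higher at P14 and Sox9, Gata4, Cst12, Kitl and Nr5a1 lower, while the values of Tbp and Hprt overlapped between ages. The members were picked by hand and not by a rule. Amh of the Sertoli list, which lay higher at P14 (640 and 200 bp against 865 and 950 bp), is not shown.

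Of the 5 genes with the widest promoter peaks at each age, 3 were shared. Cdk6, a cell cycle kinase, led both, with single peaks of 3472 and 3150 bp at P7 and 3323 and 3396 bp at P14. Adgrl2 (3262 and 2699 bp against 2964 and 2739 bp) and Cpeb2 (2937 and 2909 bp against 2974 and 2927 bp) were also among the first 5 at each age. Arrdc3 was second at P7 with 3091 and 3014 bp and its widest peak was 1269 and 1243 bp at P14. Kmt2e completed the first 5 at P7, and Ing1 and Tsc22d2 those at P14.

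Away from promoters, 3678 of 11731 merged regions were present at P14 only (31.4%), 127 at P7 only (1.08%) and 1028 at both ages. The order held with lists of equal length (1851 against 292) and with equal numbers of non-promoter peaks (1096 against 503). The count at P14 only was 6373 and 5968 without either P14 list, and that at P7 only 194 to 789 when a list was left out. Regions at P14 only had a median width of 761.5 bp, against 821 bp for regions at both ages and 407 bp for those at P7 only. By their summit 51.6% lay in introns, 7.07% in exons and 41.3% between genes, whereas 28.6% of the regions at both ages lay in introns and 60.3% between genes. The nearest start site was at a median of 14.6 kb.

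The regions at P14 only were poor in CpG, and few of them overlapped H3K27ac, H3R2me2a or H4R3me2a, the marks compared here. In the 300 bp around the summit their median ratio of observed to expected CpG was 0.195, against 0.565 for non-promoter regions at both ages and 0.808 for promoter regions at both ages. P14 H3K27ac peaks of both lists overlapped 5.98% of them, against 53.5% of the non-promoter regions at both ages and 18.1% of those at P7 only. Peaks present in all P14 lists of H3R2me2a overlapped 9.49% and those of H4R3me2a 3.67%, against 57.3% and 37.7% of the regions at both ages. Regions were defined from the H3K4me3 lists alone, so these overlaps are separate measurements, but no test over libraries was made. Their share on the X chromosome was 2.96%, close to 2.82% for regions at both ages.

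The 2 regions with the best q in both P14 lists are shown by 300 bases at the middle of the interval rather than at the summit, with matches to the motif described next in capitals. The first (chr6:88430261-88430560, mm10, plus strand) lies in an intron of Eefsec and its peaks were 1250 and 1251 bp wide. The second (chr2:120066218-120066517, mm10, plus strand) lies in an intron of Sptbn5 and its peaks were 1994 and 1893 bp wide.
Eefsec intron: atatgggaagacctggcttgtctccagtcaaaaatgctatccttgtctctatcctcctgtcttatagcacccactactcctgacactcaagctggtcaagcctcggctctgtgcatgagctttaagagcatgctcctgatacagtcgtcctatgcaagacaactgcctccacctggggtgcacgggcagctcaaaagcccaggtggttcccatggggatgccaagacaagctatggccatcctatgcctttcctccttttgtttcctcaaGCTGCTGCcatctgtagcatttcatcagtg
Sptbn5 intron: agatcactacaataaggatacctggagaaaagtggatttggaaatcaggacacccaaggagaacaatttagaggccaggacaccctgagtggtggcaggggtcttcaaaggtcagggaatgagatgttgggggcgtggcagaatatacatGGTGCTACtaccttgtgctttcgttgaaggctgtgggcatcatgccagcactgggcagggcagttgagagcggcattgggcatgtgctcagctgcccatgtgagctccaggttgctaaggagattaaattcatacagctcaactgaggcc
The next 3 lay in introns of Ttk (peaks of 1079 and 1087 bp), Sppl2a (1326 and 1338 bp) and Cttnbp2nl (1026 and 990 bp). The 5 strongest regions at P7 only were narrower, at 322 to 646 bp, and their nearest coding genes were Ifna15, Steap2, Dcaf7, Gm10273 and Rhob.

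Words of 8 bases were counted within 200 bp at the middle of the regions at P14 only that were 600 bp or wider, and within 200 bp at 400 bp to either side. On the odd-numbered chromosomes (1268 regions) GGTGCTAC was in 35 middles and on average 3.5 flanks, and GATGCTGC in 61 and 17.5. On the other chromosomes (1233 regions) GGTGCTAC was in 3.16% of middles and 0.162% of flanks, and GATGCTGC in 5.19% and 1.14%. The motif GNTGCTNC was chosen after all regions at P14 only had been looked at, so its shares are a description on the regions it came from, with no test. Searched on both strands, it was in 28.3% of the middles and 10.1% of the flanks of those 1233 regions. In the 1177 regions at P14 only that were narrower than 600 bp it was in 18.3% of middles and 11% of flanks. In non-promoter regions at both ages it was in 16.7% of middles and 13.9% of flanks, and in promoter regions at both ages in 19.8% and 15.4%. Promoter regions at P14 only held it in 28.5% of 824 middles and 12.6% of flanks, close to the values away from promoters. A match is a description of sequence and does not show that a protein binds there.

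**Figure D5:**
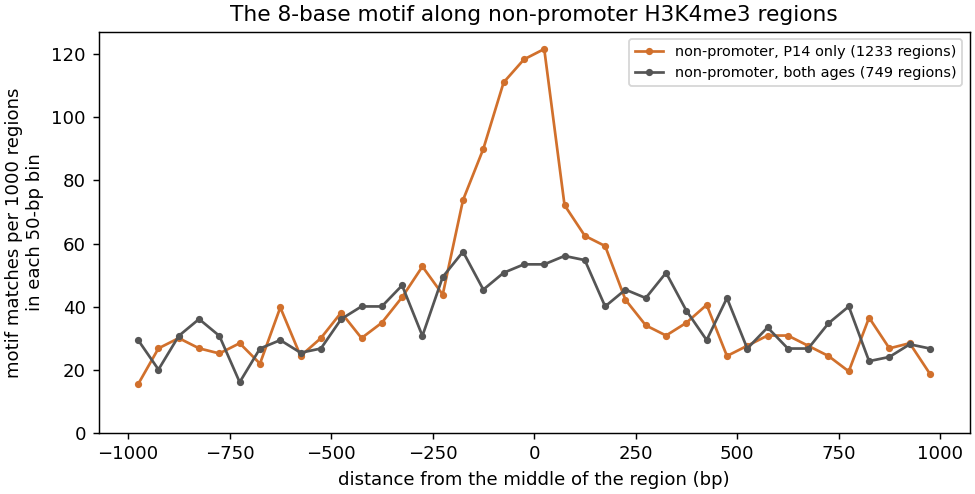
Matches of the 8-base motif per 1000 regions in bins of 50 bp (vertical axis) against the distance in bp from the middle of non-promoter regions of at least 600 bp, for 1233 regions at P14 only (chromosomes other than the odd-numbered ones) and 749 regions at both ages. The first reached 121.7 matches in the bin just right of the middle, where the second had 53.4.

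Promoter regions at 1 age only were narrower than those at both ages. The 1572 promoter regions at P14 only were 619.5 bp wide at the median and had a CpG ratio of 0.374, against 1268 bp and 0.808 for the 13352 promoter regions at both ages. The 378 promoter regions at P7 only had 503.5 bp and 0.37. Summits lay at a median of 0.609 kb from the nearest start site at P14 only and 0.377 kb at P7 only, against 0.145 kb at both ages. Of the 443 gained genes, 317 were also gained when the peak had to overlap a start site extended by 500 bp, and 330 with a window of 1000 bp. Of the 101 lost genes, 86 and 89 were lost under these rules.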

How the data were processed

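The authors trimmed reads with fastp 0.23.2 and called peaks with MACS2 2.1.0 on mm10, once per library. For the CUT&Tag libraries, aligner, control library and read depth are not stated in the sources used. The deposited lists hold, per peak, a fold enrichment (a ratio within the library), −log10 p and −log10 q, and the peak names carry a q of 0.05. Fold enrichments were not compared between lists, since depth is unknown. TPM values deposited by the authors from RSEM were used for WT RNA at P7 only, as values of single genes, medians and shares of genes at 1 TPM or more. Bulk and Smart-seq2 tables were scaled separately, and no test was made between them.

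From 99 to 104 peaks per list lay outside the reference chromosomes and were left out. Start sites (132721) came from GENCODE vM21. A peak was a promoter peak when its summit was at most 3000 bp from one, and peaks of the 4 lists were merged into regions by overlap of 1 bp. Log2 widths were tested with limma 3.58.1 in R 4.3.3, checked on simulated data. List measures were compared with exact two-sided permutation tests. Python 3.11.15, pandas 2.3.3 and pysam 0.24.0 did the rest.

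The members and the 14 gene lists were chosen with earlier results of these data known. Genes named are list members, the 10 protein-coding genes per direction with the highest smaller −log10 q of the deposited lists whose call held with a 1000 bp window and over the start site, the 8 largest called width changes per direction, the 5 widest peaks per age and 9 preset germ cell genes. Genes of a shared peak were counted separately.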

Additional observations from a re-analysis of the deposited data

How the results depend on the processing

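Peak number, promoter share and non-promoter width kept their direction under each alternative tried. The lower median width of promoter peaks at P14 turned to a higher one, by 66.5 bp at equal list length and by 13.5 bp with equal numbers of promoter and of non-promoter peaks, an alternative added after seeing the data. At equal list length 152 genes gained and 416 lost a promoter peak, and 1851 and 292 non-promoter regions were at P14 only and P7 only. Those lists hold fewer promoter peaks at P14 by construction. With equal numbers of each class the 4 counts were 249, 208, 1096 and 503. Over all annotated genes 1033 gained and 174 lost a peak. Regions at P7 only numbered 212 under a stricter overlap of peaks within a region and 206 with a window of 1000 bp. Wider and narrower promoters numbered 251 and 122 after centring on each list's median and 34 and 20 with a window of 1000 bp. The cause of these shifts was not tested.

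Without 1 library, gained genes ranged from 572 to 760, lost genes from 157 to 234, regions at P14 only from 3871 to 6373, regions at P7 only from 194 to 789, and wider and narrower promoters from 0 to 0. The lone library of an age is then assumed to vary like the other age. With a replicate block 130 promoters were wider and 66 narrower. Deviations of same-numbered libraries had r = −0.0203, a single value since with 2 libraries per age both pairs give it by construction, and the labels do not say that the numbers pair the libraries.

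Read depth is unknown, so no detection limit can be given for an absent peak, and in an exact permutation test of a list measure 2 lists per age cannot reach p below 0.33.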
